A study of Mus musculus with 12 samples.

Results

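Transcripts of 33 genes that run or build the peroxisome were examined in mouse brown fat: enzymes and transporters of peroxisomal fatty acid oxidation, enzymes of ether lipid synthesis, and peroxins, the proteins that assemble the organelle. The genes were taken by name, each from the array row assigned to it alone, and from the row with the highest mean over the 12 arrays where a gene had several. Of the 33, 29 had a row of their own among 20259 genes that did, and all 29 were among the 15896 genes bright enough to be tested. They comprise 15 oxidation genes (3 transporters, 6 of the β-oxidation spiral, 2 of α-oxidation and 4 auxiliary enzymes), 2 ether lipid genes and 12 biogenesis genes. The thiolases Acaa1a and Acaa1b shared rows with each other, Decr2 with Fam234a and Gnpat with Trim67, so these 4 have no value here.

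Peroxisomes shorten fatty acids that mitochondria handle poorly, such as very long, branched and dicarboxylic chains. Acyl-CoA oxidases start each round and release hydrogen peroxide, which catalase breaks down, and the shortened products leave as carnitine or CoA esters for mitochondria. The enzymes are made in the cytosol and pulled into the organelle folded: the receptors PEX5 and PEX7 carry them to a docking complex of PEX14 and PEX13, ring-finger proteins such as PEX2 and PEX10 ubiquitinate the receptor, and PEX6, anchored by PEX26, helps to extract it again. PEX3, PEX16 and PEX19 place the membrane proteins, and PEX11 proteins elongate the organelle before it divides. Brown fat is rich in peroxisomes, and many of the oxidation genes are known targets of the fatty acid receptor PPARα.

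Interscapular brown fat came from 12 female C57BL/6 mice aged 12 weeks, kept for 2 weeks at 30 °C, with 1 array for each mouse. Wild-type controls were Cpt2f/f, carrying floxed alleles of Cpt2 without Cre, and knockouts were adiponectin-Cre;Cpt2f/f, so that the gene was deleted where the adiponectin promoter drives Cre, in adipocytes, while other cells of the tissue keep it. CPT2 completes the entry of long-chain fatty acids into mitochondrial oxidation. Mice of each genotype received an intraperitoneal injection of saline or of 10 mg/kg CL316243, which activates the β3-adrenergic receptor of adipocytes, and tissue was taken 3 h later, giving 4 groups of 3 mice labelled as biological replicates.

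Values are log2 signals of an exon array, so a difference of 1 is a doubling, and errors beside differences are standard errors of the fit. A gene is said to rise, fall or differ where the adjusted p of limma's moderated test over all 15896 genes was under 0.05. Cpt2 itself was 0.75 ± 0.096 log2 units lower in knockouts after saline (adjusted p = 0.00207) and 0.75 ± 0.096 lower after CL316243 (adjusted p = 3.86e-04), with each knockout array under each wild-type array. Marker lists of cell types varied between groups and are given as the mean centred log2 signal of each list. The brown adipocyte score, over 8 markers including Ucp1 and Dio2, ran from 0.03 to 0.30 in wild-type saline, 1.03 to 1.19 in wild-type CL316243, -1.29 to -0.04 in knockout saline and -0.88 to -0.50 in knockout CL316243 arrays. With the agonist 3 of the 8 markers rose in wild types, against 11% of all tested genes, and 5 differences were above 0. The largest was that of Elovl3, whose group mean went from 6.86 to 10.22. Cidea went from 10.83 to 10.72, Cox8b from 12.19 to 12.07 and Zic1 from 6.05 to 5.88. Whether the score followed cell content was not tested. The lowest brown adipocyte score belonged to knockout saline array 1, and calls of the genes named that were lost without it are given with them. Without it Phyh fell in wild types (-0.31, adjusted p = 0.0425) and Pex16 rose in knockouts (0.48, adjusted p = 0.0378), which they did not over all arrays. Macrophage markers, of which 7 of 8 were higher in knockouts after either injection, scored -0.68 to -0.06 and -0.53 to -0.32 in wild types against 0.11 to 0.59 and 0.34 to 0.54 in knockouts (saline, then CL316243). Of all tested genes 5.44% and 14.7% were higher. Glandular epithelium markers scored -0.84 to -0.02 and -1.02 to -0.71 in wild types against -0.02 to 0.88 and 0.34 to 1.17 in knockouts. Of these 6 markers 2 were higher in knockouts after saline (6 at an unadjusted p under 0.05 in limma) and 6 after CL316243. Skeletal muscle markers scored -2.08 to 1.90 in wild-type saline, -1.70 to 0.34 in wild-type CL316243, -2.04 to 1.10 in knockout saline and -0.30 to 1.46 in knockout CL316243 arrays. The 7 general adipocyte markers scored -0.31 to -0.01 in wild-type saline and -0.15 to 0.02 in wild-type CL316243 arrays. In knockouts they scored 0.08 to 0.26 after saline and 0.01 to 0.10 after CL316243. In such bulk tissue fewer cells of a type and less RNA per cell cannot be told apart.

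In wild types the agonist changed peroxisomal genes in both directions within 3 h. Ehhadh, the bifunctional enzyme of the classical β-oxidation spiral, rose 3.02-fold. The import receptor Pex5 rose 2.72-fold, and the docking factors Pex13 and Pex14 rose 2.29-fold and 1.88-fold. The ubiquitin ligase gene Pex2, the receptor Pex7 and the oxidase Acox3 fell. Of the 29 genes 5 rose (17.2%, against 11% of all tested genes) and 8 fell (27.6%, against 18.8%). The 2 groups did not overlap for 15 of them, as for 41% of all genes. The split between enzymes and biogenesis factors was 1 risen and 5 fallen among 15 oxidation genes, with a median difference of -0.31, and 4 risen and 3 fallen among 12 biogenesis genes, with a median of -0.04. Over all tested genes the median was -0.07. Centring each array on its median moved that to 0.04, the biogenesis median to 0.07 and the oxidation median to -0.19. With centred arrays 6 of the 29 rose and 6 fell, where 2491 and 1641 of the 15896 tested genes did.

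The 250 bases before the RefSeq start (GRCm38.p6) are shown for Ehhadh, Pex5, Pex13 and Pex14, the genes that rose most in wild types, and for Pex7, which fell, to set their letters side by side. Capitals mark TGACG, the short form of the cyclic AMP response element, on either strand; in Pex13 the 2 overlapping matches make up the full element TGACGTCA. Pex5 has 3 RefSeq starts, and the window printed is the one that holds matches; the other 2 windows hold none.
Ehhadh (chr16:21787835-21788084, minus strand): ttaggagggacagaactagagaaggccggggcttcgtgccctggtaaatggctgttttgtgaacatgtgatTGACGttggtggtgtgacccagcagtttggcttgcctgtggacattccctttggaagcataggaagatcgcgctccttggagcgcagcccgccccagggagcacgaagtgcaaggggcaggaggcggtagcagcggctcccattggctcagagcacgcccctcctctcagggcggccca
Pex5 (chr6:124415856-124416105, minus strand): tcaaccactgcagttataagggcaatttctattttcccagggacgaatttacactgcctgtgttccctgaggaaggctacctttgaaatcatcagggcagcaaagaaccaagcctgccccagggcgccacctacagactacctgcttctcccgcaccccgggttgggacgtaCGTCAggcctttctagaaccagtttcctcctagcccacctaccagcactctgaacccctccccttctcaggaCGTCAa
Pex13 (chr11:23665884-23666133, minus strand): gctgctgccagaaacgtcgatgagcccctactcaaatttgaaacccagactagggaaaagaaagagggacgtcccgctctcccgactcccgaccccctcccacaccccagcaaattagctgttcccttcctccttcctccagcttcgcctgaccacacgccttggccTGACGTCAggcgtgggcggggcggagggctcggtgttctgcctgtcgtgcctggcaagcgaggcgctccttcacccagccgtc
Pex14 (chr4:149099844-149100093, minus strand): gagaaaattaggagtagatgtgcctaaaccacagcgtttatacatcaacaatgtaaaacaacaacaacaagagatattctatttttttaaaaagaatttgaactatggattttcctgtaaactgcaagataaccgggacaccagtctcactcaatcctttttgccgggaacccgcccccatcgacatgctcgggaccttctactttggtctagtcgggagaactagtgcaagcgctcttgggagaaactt
Pex7 (chr10:19907675-19907924, minus strand): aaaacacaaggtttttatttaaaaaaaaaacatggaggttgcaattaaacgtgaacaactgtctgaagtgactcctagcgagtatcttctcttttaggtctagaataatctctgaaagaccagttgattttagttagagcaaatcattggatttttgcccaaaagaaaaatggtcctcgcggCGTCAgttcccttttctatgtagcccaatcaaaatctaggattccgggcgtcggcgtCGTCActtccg

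The full element stands 83 to 76 bases before the Pex13 start, and 1.55% of 32851 windows of the same length in the RefSeq table hold it. The short form lies 179 to 175 bases before the Ehhadh start and at 2 places in the Pex5 window, and 17.8% of all windows hold it. Pex7, which fell, also has 2 matches, and Pex14, which rose, has none. Of the 33 peroxisomal genes 27 had a window searched, 32 windows in all, and 11 of these held TGACG. They include Acaa1a, Acaa1b, Decr2 and Gnpat, which have no array value. No window was searched for Abcd2, Abcd4, Amacr, Hsd17b4, Pex2 or Pex19. The search of peroxisomal genes left out a chromosome that the shares over all windows kept, so the counts are not on the same basis. The element known as direct repeat 1, to which PPARα binds with its RXR partner, was searched on both strands too: it was in 0 of the 32 windows and in 0.0335% of all windows. Its repeat unit AGGTCA, which is part of that element, was in 2 of the 32, those of Scp2 and Cat, against 14.0% of all windows. A match is a run of letters and was not tested for binding.

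**Figure D1:**
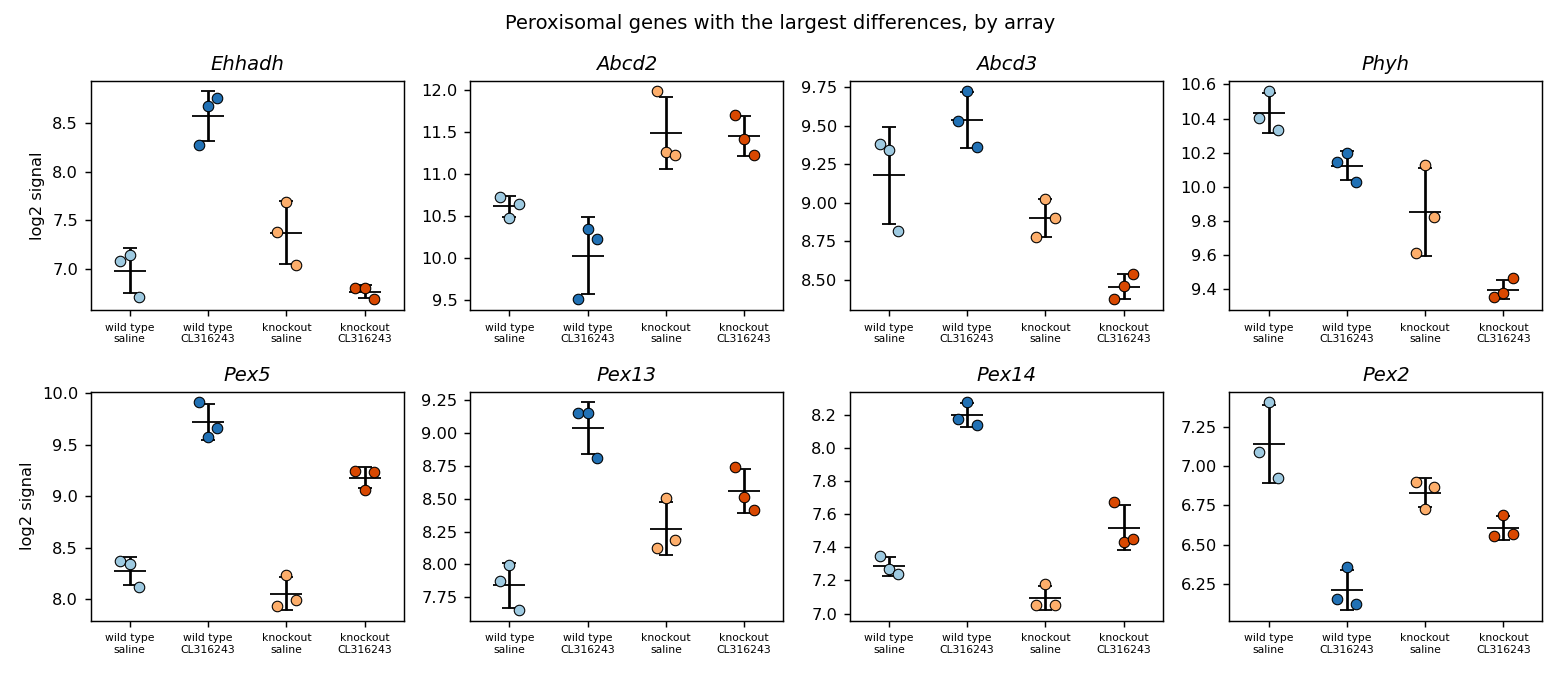
Log2 signal (vertical axis) of 8 peroxisomal genes in each of the 12 arrays, by group (horizontal axis); points are arrays, and bars are the group mean and SD (n = 3). For Ehhadh the wild types given CL316243 lie between 8.28 and 8.76, and the points are at or under 7.69 in the other 9 arrays.

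Of the 15 oxidation genes Ehhadh alone rose in wild types on the values as deposited; with median-centred arrays Abcd3 rose too (0.47, adjusted p = 0.0365). The log2 signals of Ehhadh were 7.08, 7.14 and 6.71 in wild types given saline, 8.28, 8.67 and 8.76 in wild types given CL316243, 7.38, 7.69 and 7.04 in knockouts given saline and 6.80, 6.80 and 6.68 in knockouts given CL316243. The wild-type CL316243 arrays lay above all 9 others. The difference in wild types was 1.59 ± 0.18 (adjusted p = 1.15e-04), with a 95% interval of 1.21 to 1.98. Acox3, the oxidase that starts the breakdown of branched-chain acyl-CoAs, had signals of 8.12, 8.28 and 8.05 in wild types given saline, 7.61, 7.54 and 7.48 in wild types given CL316243, 8.28, 8.18 and 7.96 in knockouts given saline and 7.52, 7.56 and 7.56 in knockouts given CL316243. Both CL316243 groups lay under both saline groups, and its fall in wild types was 0.60 ± 0.094 (adjusted p = 8.97e-04). Crot, which makes carnitine esters of medium-chain products for export, fell by 0.62 ± 0.14 (adjusted p = 0.00795). Amacr, the racemase that lets branched-chain acyl-CoAs enter β-oxidation, stood at 7.31, 7.53 and 7.00 in wild types given saline, 6.86, 7.02 and 6.53 in wild types given CL316243, 6.71, 7.00 and 6.81 in knockouts given saline and 6.11, 6.32 and 6.29 in knockouts given CL316243. Its groups overlapped in wild types, where it fell by 0.48 ± 0.15 (adjusted p = 0.0366); the call was lost with median-centred or quantile-normalized arrays (adjusted p = 0.107 and 0.0937), in a fit of these 2 groups alone, and without array 1 or 2 of wild-type saline, wild-type CL316243 array 1 or 3, or knockout saline array 3. Pecr, a reductase of enoyl-CoAs, fell by 0.33 ± 0.093 (adjusted p = 0.0202), a call lost with either rescaling, in the fit of these groups alone, and without array 2 of wild-type saline or array 1 of wild-type CL316243 (adjusted p of up to 0.100).

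Abcd4 fell by 0.43 ± 0.088 (adjusted p = 0.00421); it belongs by sequence to the family of peroxisomal transporters, but its human protein works in lysosomes, where it exports cobalamin. No call was made in wild types for the transporters Abcd2 (-0.59 ± 0.24, and -0.33 without wild-type CL316243 array 1) and Abcd3 (0.36 ± 0.15), nor for Hsd17b4, the second bifunctional enzyme of the organelle (0.09 ± 0.11). The same held for Acox2, an oxidase of bile acid precursors (-0.13 ± 0.13), Scp2, a lipid carrier and thiolase (-0.10 ± 0.11), and the α-oxidation genes Phyh, the hydroxylase of phytanoyl-CoA (-0.31 ± 0.12), and Hacl1, its lyase (-0.31 ± 0.18). Cat, which encodes catalase, had signals of 11.36, 11.39 and 11.26 in wild types given saline, 11.19, 11.35 and 11.25 in wild types given CL316243, 11.53, 11.55 and 11.38 in knockouts given saline and 11.35, 11.13 and 11.25 in knockouts given CL316243. These ranges overlapped in wild types, and the difference was -0.07 ± 0.085, with an interval of -0.26 to 0.12. The isomerase Eci2 was at -0.18 ± 0.13, and the ether lipid genes Agps and Far1 at 0.12 ± 0.13 and 0.18 ± 0.18.

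The import genes moved in both directions. Pex5, the receptor for most matrix enzymes, had signals of 8.37, 8.34 and 8.12 in wild types given saline, 9.91, 9.58 and 9.67 in wild types given CL316243, 7.93, 8.23 and 7.99 in knockouts given saline and 9.24, 9.06 and 9.24 in knockouts given CL316243. Each CL316243 array of either genotype lay above each saline array. Pex5 rose by 1.44 ± 0.12 (adjusted p = 1.81e-05) in wild types. Pex13 stood at 7.87, 7.99 and 7.65 in wild types given saline, 9.15, 9.15 and 8.81 in wild types given CL316243, 8.13, 8.50 and 8.19 in knockouts given saline and 8.74, 8.51 and 8.42 in knockouts given CL316243. The wild-type CL316243 arrays were the highest, clear of every other group, and the rise in wild types was 1.20 ± 0.14 (adjusted p = 1.72e-04). Pex14 had signals of 7.35, 7.27 and 7.24 in wild types given saline, 8.18, 8.28 and 8.14 in wild types given CL316243, 7.05, 7.18 and 7.05 in knockouts given saline and 7.68, 7.43 and 7.45 in knockouts given CL316243, again with no overlap between wild-type groups, and rose by 0.91 ± 0.086 (adjusted p = 3.96e-05). These 3 genes encode the receptor and its dock; they were set side by side after their values had been seen.

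Pex2, a ring-finger gene of the step that follows docking, moved down, with signals of 7.09, 7.41 and 6.92 in wild types given saline, 6.15, 6.36 and 6.12 in wild types given CL316243, 6.90, 6.73 and 6.87 in knockouts given saline and 6.55, 6.69 and 6.57 in knockouts given CL316243. The wild-type CL316243 arrays were the lowest of all, and the fall was 0.93 ± 0.12 (adjusted p = 3.14e-04). Pex10, its partner in the ring-finger complex, was at -0.29 ± 0.11 (adjusted p = 0.0618) and had no call. Pex7, the receptor for the few enzymes with the other targeting signal, had signals of 7.24, 7.30 and 7.14 in wild types given saline, 6.78, 6.71 and 6.69 in wild types given CL316243, 6.96, 7.03 and 6.97 in knockouts given saline and 6.59, 6.55 and 6.57 in knockouts given CL316243. Its CL316243 arrays lay under the saline arrays in both genotypes, and the fall in wild types was 0.50 ± 0.068 (adjusted p = 4.49e-04). Pex26, the membrane anchor of the extraction motor, fell by 0.60 ± 0.082 (adjusted p = 4.37e-04), whereas Pex6, a subunit of that motor, was at 0.06 ± 0.12 with no call. Of the membrane assembly genes Pex16 rose by 0.48 ± 0.13 (adjusted p = 0.0178), a call lost without array 2 of either wild-type group (adjusted p of up to 0.0653), and Pex3 and Pex19 had differences of 0.18 ± 0.12 and -0.15 ± 0.10 with no call. Pex11a, the PPARα-responsive elongation factor, was at 8.10, 8.36 and 7.96 in wild types given saline, 7.46, 8.05 and 7.77 in wild types given CL316243, 7.82, 8.11 and 7.82 in knockouts given saline and 7.46, 7.48 and 7.48 in knockouts given CL316243. Its groups overlapped in wild types, and the difference was -0.38 ± 0.15 (adjusted p = 0.079).

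**Figure D2:**
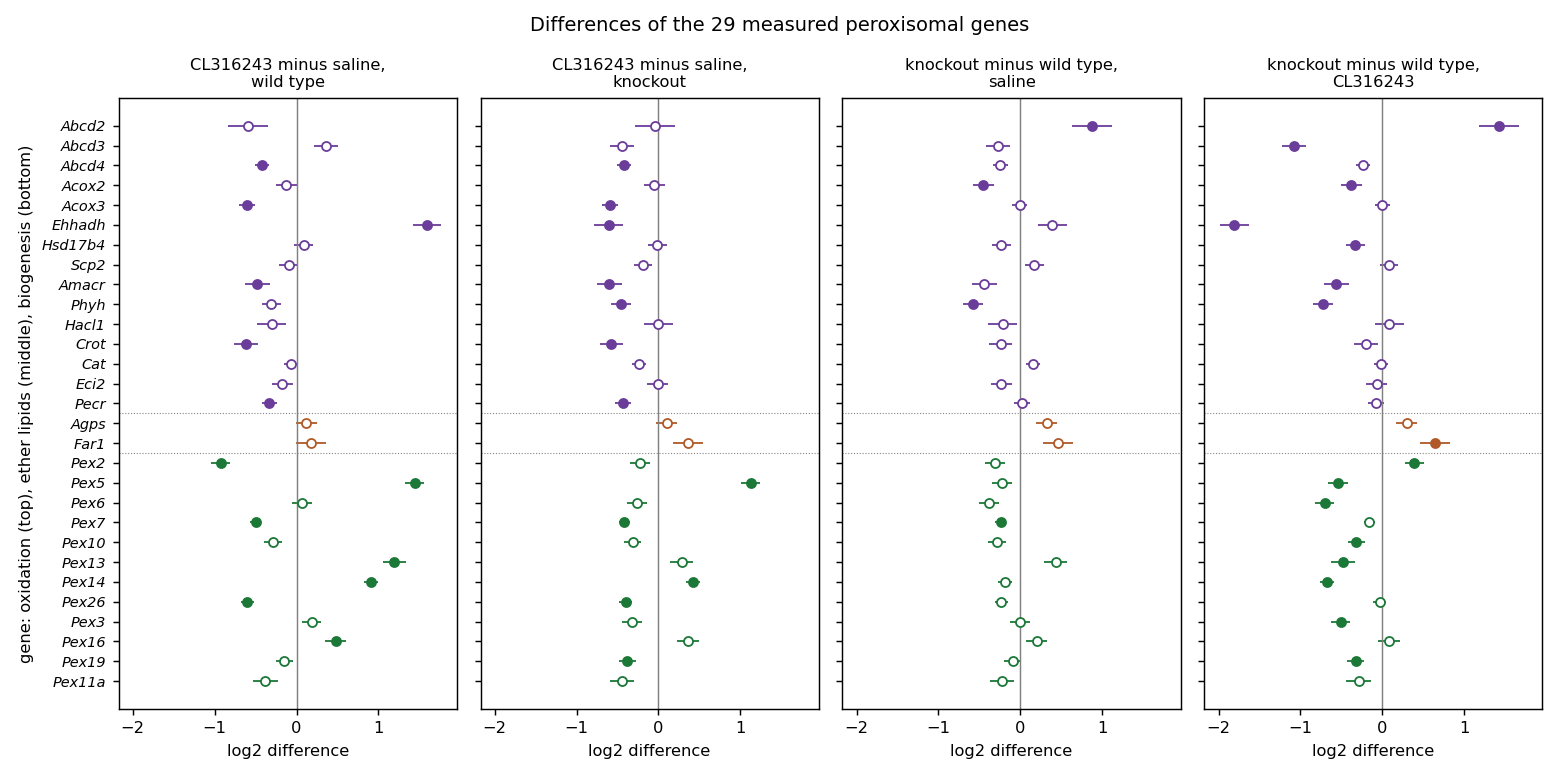
Log2 differences (horizontal axis) of the 29 measured genes (vertical axis) in 4 comparisons; points are estimates, bars standard errors, filled points passed an adjusted p of 0.05. Purple points are oxidation genes, brown ether lipid genes and green biogenesis genes. Of the oxidation genes all 15 lie under 0 in the agonist comparison within knockouts.

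In knockouts the same dose raised 2 of these genes and lowered 10. The 2 that rose were Pex5 and Pex14 (6.90% of 29, against 7.75% of all tested genes), and the 10 that fell were 34.5%, against 10.2%. The groups did not overlap for 21 of the 29, against 40.2% of all genes. Of 15 oxidation genes 0 rose and 7 fell, and the median was -0.42; all 15 differences were under 0 as deposited, 10 of 15 after median-centring and 14 of 15 after quantile normalization, where 9603, 7947 and 8485 of the 15896 tested genes were under 0. Biogenesis genes had 2 risen and 3 fallen of 12, with a median of -0.29, against -0.06 over all genes. After median-centring 3 of the 12 rose and 2 fell, where 1491 and 1043 of the 15896 tested genes did.

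Pex5 rose by 1.13 ± 0.12 (adjusted p = 2.56e-04) in knockouts and Pex14 by 0.42 ± 0.086 (adjusted p = 0.00742). Pex13 was at 0.28 ± 0.14 (adjusted p = 0.196), with 1 knockout saline array above 1 CL316243 array, so the groups overlapped. Ehhadh fell by 0.61 ± 0.18 (adjusted p = 0.0357), the opposite of its direction in wild types; this smaller change lost its call with median-centred or quantile-normalized arrays (adjusted p = 0.0543 and 0.0677), with skeletal muscle as a covariate (0.0578), and without knockout saline array 1 or 2 or any knockout CL316243 array (0.0719 to 0.118). Genes that fell in wild types and fell here too include Abcd4, at -0.42 ± 0.088 (adjusted p = 0.00873), Pex7, at -0.42 ± 0.068 (adjusted p = 0.00265), and Pex26, at -0.40 ± 0.082 (adjusted p = 0.00776). For Acox3 the fall was 0.59 ± 0.094 (adjusted p = 0.00221), which was lost when both of its array rows were averaged (adjusted p = 0.130).

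Pecr fell by 0.43 ± 0.093 (adjusted p = 0.0101). Crot fell by 0.57 ± 0.14 (adjusted p = 0.0195), a call lost without knockout saline array 1 or 3 or knockout CL316243 array 1 (adjusted p of up to 0.0730). Amacr fell by 0.60 ± 0.15 (adjusted p = 0.0223), lost with quantile normalization (0.0523) and without knockout saline array 2 or 3 or knockout CL316243 array 1 or 3. Phyh had signals of 10.40, 10.56 and 10.33 in wild types given saline, 10.15, 10.20 and 10.03 in wild types given CL316243, 9.61, 10.13 and 9.83 in knockouts given saline and 9.36, 9.38 and 9.46 in knockouts given CL316243. Its 4 groups stood in steps with no overlap between the groups compared. The fall in knockouts was 0.46 ± 0.12 (adjusted p = 0.0238), lost in a fit of these groups alone and without knockout saline array 2 or 3 or any knockout CL316243 array (up to 0.0797), and in wild types the difference was -0.31 ± 0.12 (adjusted p = 0.0758). Pex19, the chaperone of peroxisomal membrane proteins, fell by 0.38 ± 0.10 (adjusted p = 0.0278), lost with median-centring and without knockout saline array 1 or 2 or knockout CL316243 array 2 or 3 (up to 0.0983). Pex2 was at -0.23 ± 0.12 (adjusted p = 0.224), with no call.

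The response to the agonist itself was compared between genotypes with the interaction, the change in knockouts minus that in wild types. Of the 29 genes 2 had a lower response in knockouts (6.90%, against 1.26% of all tested genes) and 0 a higher one by limma, against 0.774%. At an unadjusted p under 0.05 in limma the counts were 5 lower and 1 higher, against 1151 and 1381 of all 15896 tested genes. For Ehhadh the interaction was -2.20 ± 0.25 (adjusted p = 0.00228), and over the alternatives its adjusted p ran from 0.00145 to 0.00975. For Pex13 it was -0.91 ± 0.20 (adjusted p = 0.0439), near the threshold: the call was lost with no filter on dim genes, with skeletal muscle as a covariate, and without array 1 or 3 of wild-type saline, wild-type CL316243 array 1 or 2, knockout saline array 2 or 3, or knockout CL316243 array 2 or 3 (up to 0.116). For Pex5 and Pex14 it was -0.32 ± 0.17 (adjusted p = 0.392) and -0.49 ± 0.12 (adjusted p = 0.066), and for Pex2 0.70 ± 0.17 (adjusted p = 0.0601). In all, 10 genes changed with the agonist in both genotypes, 9 of them in 1 direction, 3 had a call in wild types alone and 2 in knockouts alone. Of all tested genes 29.8% had a call with the agonist in wild types and 17.9% in knockouts. How many of them had both was not counted. A call in 1 genotype alone is not a difference between genotypes.

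**Figure D3:**
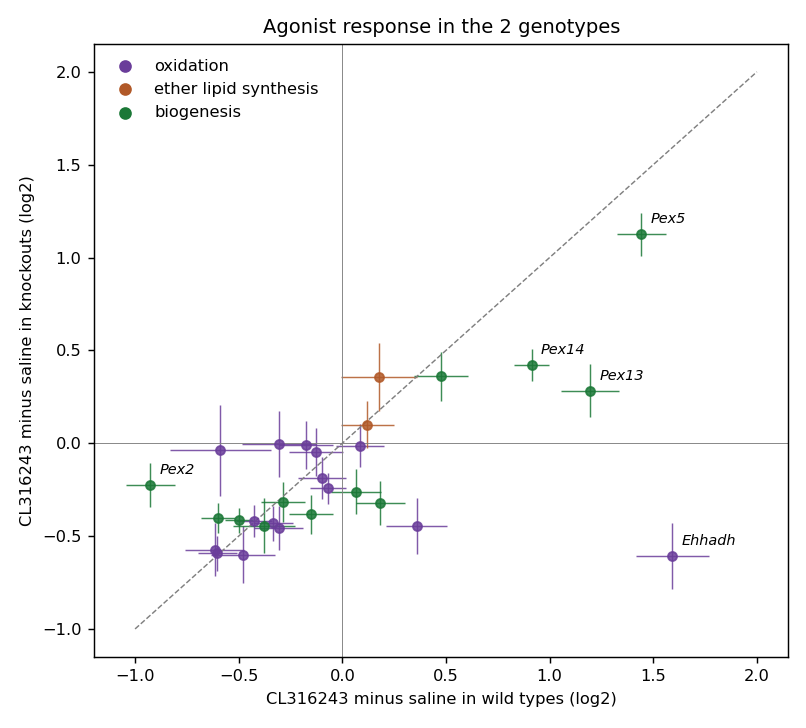
Log2 difference between CL316243 and saline in wild types (horizontal axis) and in knockouts (vertical axis) for the 29 genes, with standard errors; the dashed line marks equal responses. Ehhadh lies at 1.59 and -0.61, Pex13 at 1.20 and 0.28, and Pex5, at 1.44 and 1.13, below the line but nearer to it than either.

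After saline 1 of the 29 genes was higher in knockouts (3.45%, against 5.44% of all tested genes) and 3 were lower (10.3%, against 6.19%). The median difference was -0.23 for oxidation and -0.22 for biogenesis genes, against -0.05 over all genes. Differences were under 0 for 10 of 15 oxidation genes, 10 of 12 biogenesis genes and 9290 of all 15896 tested genes. At an unadjusted p under 0.05 in limma 10 of the 29 were lower and 5 higher, against 2685 and 1941 of all tested genes. The groups did not overlap for 12 of the 29, against 36.8% of all genes. Abcd2, the importer of very long-chain acyl-CoAs, had signals of 10.73, 10.48 and 10.64 in wild types given saline, 9.51, 10.35 and 10.23 in wild types given CL316243, 11.99, 11.26 and 11.23 in knockouts given saline and 11.71, 11.42 and 11.23 in knockouts given CL316243. Each knockout array lay above each wild-type array of the same injection. The difference after saline was 0.87 ± 0.24 (adjusted p = 0.0416), lost in 9 of 21 alternatives, among them a fit of these groups alone and those without any wild-type saline array, knockout saline array 1 or 3, or knockout CL316243 array 2 or 3 (up to 0.141). Phyh was lower by 0.58 ± 0.12 (adjusted p = 0.0137), lost in a fit of these groups alone and without knockout saline array 1 or 3 (0.0507 without array 1, 0.0663 at most). Acox2 had signals of 6.23, 5.75 and 5.86 in wild types given saline, 5.90, 5.71 and 5.85 in wild types given CL316243, 5.59, 5.45 and 5.43 in knockouts given saline and 5.25, 5.55 and 5.53 in knockouts given CL316243. Knockout arrays lay under wild-type arrays of the same injection, and the difference after saline was -0.46 ± 0.13 (adjusted p = 0.0445), lost in 13 of 20 alternatives, including those without array 1 or 3 of wild-type saline, wild-type CL316243 array 1 or 2, any knockout saline array or knockout CL316243 array 2 or 3. Pex7 was at -0.24 ± 0.068 (adjusted p = 0.0437), lost in 13 of 21, including those without array 1 or 2 of wild-type saline, wild-type CL316243 array 2 or any knockout array. Without knockout saline array 1 these calls were all lost, at adjusted p of 0.141 for Abcd2, 0.0507 for Phyh, 0.0811 for Acox2 and 0.134 for Pex7. Ehhadh was at 0.39 ± 0.18 (adjusted p = 0.168) and catalase at 0.15 ± 0.085 (adjusted p = 0.254).

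After the agonist, knockouts had lower levels of Ehhadh, Abcd3, Phyh and several import genes than wild types, and a higher level of Abcd2. Of the 29 genes 13 were lower (44.8%, against 14.8% of all tested genes) and 3 higher (10.3%, against 14.7%). Lower were 6 of 15 oxidation genes and 7 of 12 biogenesis genes, higher 1 of each, and the medians were -0.20 and -0.32, against -0.04 over all genes. Groups did not overlap for 20 of the 29 genes, against 44.8% of all tested genes. This comparison shares its wild-type CL316243 arrays with the agonist comparison in wild types, so for a gene that the agonist raised there the values below and above are not independent.

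Ehhadh was 3.5-fold lower in knockouts, at -1.81 ± 0.18 (adjusted p = 1.08e-04). Abcd3, the transporter for dicarboxylic and branched-chain acyl-CoAs, had signals of 9.38, 9.34 and 8.81 in wild types given saline, 9.53, 9.72 and 9.36 in wild types given CL316243, 8.77, 9.02 and 8.90 in knockouts given saline and 8.37, 8.46 and 8.53 in knockouts given CL316243. The knockout CL316243 arrays were the lowest and the wild-type CL316243 arrays, apart from overlap with wild-type saline, the highest. Its difference after the agonist was -1.08 ± 0.15 (adjusted p = 5.71e-04). Phyh was lower by 0.73 ± 0.12 (adjusted p = 0.00152) and Abcd2 higher by 1.43 ± 0.24 (adjusted p = 0.00185). Amacr was lower by 0.56 ± 0.15 (adjusted p = 0.0196), a call lost without wild-type CL316243 array 2 or knockout CL316243 array 1 (up to 0.0752). Acox2, at -0.38 ± 0.13 (adjusted p = 0.0476), and Hsd17b4, at -0.33 ± 0.11 (adjusted p = 0.0493), lay close to the threshold and lost their calls in 15 of 20 and 14 of 21 alternatives, among them leaving out any array of the knockouts or of wild-type CL316243, wild-type saline array 3 for Acox2 and wild-type saline array 1 for Hsd17b4. Far1, the reductase that supplies fatty alcohols for ether lipids, was higher by 0.64 ± 0.18 (adjusted p = 0.0228), lost in a fit of these groups alone and without knockout CL316243 array 1 or 2 (up to 0.0794); without wild-type CL316243 array 3 it was 0.40 (adjusted p = 0.0461). Acox3, at 0.00 ± 0.094, Cat, at -0.02 ± 0.085, and Scp2, at 0.08 ± 0.11, had no call.

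Among biogenesis genes Pex6 was lower by 0.71 ± 0.12 (adjusted p = 0.00189), Pex14 by 0.68 ± 0.086 (adjusted p = 3.70e-04), Pex5 by 0.54 ± 0.12 (adjusted p = 0.00621) and Pex3, the membrane receptor of PEX19, by 0.51 ± 0.12 (adjusted p = 0.00911). These 4 calls held in every alternative tried. After saline the same 4 genes stood at -0.38, -0.19, -0.22 and -0.01, with no call by limma (adjusted p of 0.0656, 0.166, 0.228 and 0.980). The interaction was -0.33 ± 0.17 for Pex6 (adjusted p = 0.394) and -0.50 ± 0.17 for Pex3 (adjusted p = 0.165). Pex13 was lower by 0.48 ± 0.14 (adjusted p = 0.0262), lost with skeletal muscle as a covariate and without wild-type CL316243 array 1 or 2 or knockout CL316243 array 2 or 3 (up to 0.0855). Pex19 was at -0.32 ± 0.10 (adjusted p = 0.0378) and Pex10 at -0.31 ± 0.11 (adjusted p = 0.0449), lost in 6 and 11 of 21 alternatives. For Pex19 these include leaving out any wild-type CL316243 array or knockout CL316243 array 2 or 3, and for Pex10 any array of wild-type saline, wild-type CL316243 array 2 or 3, knockout saline array 1 or any knockout CL316243 array. Pex2 was higher by 0.39 ± 0.12 (adjusted p = 0.0303), lost without wild-type CL316243 array 1 or 3 or any knockout CL316243 array (up to 0.0992). After saline Pex13 was at 0.43, Pex19 at -0.09, Pex10 at -0.29 and Pex2 at -0.31, with no call. The interaction of Pex10 was -0.03 ± 0.15 (adjusted p = 0.957). Of the brown adipocyte markers 6 of 8 were also lower in knockouts after CL316243. Of the macrophage and glandular epithelium markers 7 of 8 and 6 of 6 were higher there. All 16 skeletal muscle markers had differences above 0, with a median of 1.72, and 0 were called by limma (1 at an unadjusted p under 0.05). With their score as a covariate 5 of the 13 lower genes lost their calls, Acox2, Hsd17b4, Pex10, Pex13 and Pex19 (adjusted p of 0.0517 to 0.109). The part of the other shifts in the differences of the peroxisomal genes was not tested.

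Other genes of the organelle came from lists written from general knowledge, but with earlier results of these data known. Of 24 further oxidation enzymes and transporters 19 were tested. In wild types the agonist raised 8 and lowered 5 of them (11% and 18.8% of all tested genes). The thioesterases Acot4, Acot3 and Acot5, which release free fatty acids from CoA in the organelle, rose by 2.59 ± 0.17, 1.89 ± 0.15 and 1.84 ± 0.30, and Crat, the carnitine acetyltransferase of mitochondria and peroxisomes, by 0.64 ± 0.13. For Acot5 wild-type CL316243 array 3 stood at 8.25, against 6.98 and 6.75 in arrays 1 and 2. Its rise kept its call in every alternative, where it was 1.38 at the lowest. The CoA diphosphatase Nudt7 fell by 1.05 ± 0.14, and Idh1, a source of NADPH in cytosol and peroxisome, by 1.02 ± 0.14. In knockouts 2 rose, Acsl4, an acyl-CoA synthetase of polyunsaturated chains, by 1.24 ± 0.12 and Acot4 by 1.03 ± 0.17, and 3 fell, where 7.75% of all tested genes rose and 10.2% fell. The response differed between genotypes for 6 of the 19, 5 of them with a lower and 1 with a higher response in knockouts, against 1.26% and 0.774% of all genes. It was lower in knockouts for Acot3, at -1.63 ± 0.21 (adjusted p = 0.00467), Acot4, at -1.57 ± 0.24 (adjusted p = 0.011), and Tysnd1, the protease that trims imported enzymes, at -0.91 ± 0.16 (adjusted p = 0.017). Acot8, at -0.79 ± 0.13 (adjusted p = 0.0153), and Crat, at -0.84 ± 0.18 (adjusted p = 0.0416), were lower likewise, and Acsl4 rose more in knockouts, at 1.10 ± 0.17 (adjusted p = 0.011). The interaction of Crat lost its call in 12 of 20 alternatives (up to 0.107), among them leaving out array 1 or 3 of wild-type saline, wild-type CL316243 array 2 or 3, knockout saline array 2 or 3 or any knockout CL316243 array; the other 5 kept theirs in all 20.

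Knockouts had 3 of these 19 lower after saline, and 11 lower and 1 higher after the agonist. Over all tested genes 6.19% were lower after saline, and 14.8% were lower and 14.7% higher after the agonist. Slc27a2, a synthetase that activates very long-chain fatty acids, had signals of 9.52, 9.78 and 9.28 in wild types given saline, 10.08, 10.16 and 10.07 in wild types given CL316243, 7.18, 9.05 and 8.10 in knockouts given saline and 6.73, 7.32 and 7.20 in knockouts given CL316243. All knockout arrays lay under all wild-type arrays, and knockout saline array 1 was well under the other 2 of its group. The difference was -1.42 ± 0.36 (adjusted p = 0.0292) after saline and -3.02 ± 0.36 (adjusted p = 2.68e-04) after the agonist, the largest of this list in both as measured by its brightest array row; with its rows averaged they were -0.92 and -1.97 (adjusted p = 0.0233 and 1.77e-04). The difference after saline lost its call in a fit of these groups alone and without wild-type saline array 1 or 2 or knockout saline array 1 or 3 (up to 0.0959).

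Of the regulators, Ppara, which encodes PPARα, had signals of 10.73, 11.06 and 10.06 in wild types given saline, 12.33, 12.22 and 11.98 in wild types given CL316243, 9.02, 10.38 and 9.87 in knockouts given saline and 9.92, 9.80 and 9.69 in knockouts given CL316243. The wild-type CL316243 arrays stood above all others, with a rise of 1.56 ± 0.31 (adjusted p = 0.00357), while in knockouts the agonist difference was 0.05 ± 0.31 (adjusted p = 0.944) and, without knockout saline array 1, -0.32 (adjusted p = 0.473). After the agonist Ppara was 5.18-fold lower in knockouts, at -2.37 ± 0.31 (adjusted p = 4.45e-04); the interaction, -1.51 ± 0.44 (adjusted p = 0.111), missed the threshold, and without knockout saline array 1 it was -1.88 with an adjusted p of 0.0283. Ppargc1a, the coactivator PGC-1α, had signals of 7.32, 7.45 and 7.07 in wild types given saline, 11.57, 11.53 and 11.27 in wild types given CL316243, 6.70, 7.87 and 6.97 in knockouts given saline and 9.76, 9.84 and 9.84 in knockouts given CL316243. The agonist raised it without overlap in both genotypes, by 4.17 ± 0.24 in wild types and 2.64 ± 0.24 in knockouts, and the interaction was -1.54 ± 0.33 (adjusted p = 0.0433). It lost its call in 11 of 20 alternatives (up to 0.104), including those without any array of wild-type saline, wild-type CL316243 array 1 or 2, knockout saline array 3 or any knockout CL316243 array. Of 9 regulators tested, 6 were lower and 1 higher in knockouts after the agonist (14.8% and 14.7% of all tested genes), among them Ppargc1b, at -1.18 ± 0.30, whose call was lost without knockout CL316243 array 2 (adjusted p = 0.0534), and Rxrg, at -0.78 ± 0.14. After saline 2 of the 9 were lower and 2 higher in knockouts (6.19% and 5.44% of all tested genes). Rxrg was lower there too, with group means of 7.44 against 8.03 in wild types (limma adjusted p = 0.0222). That call was lost in a fit of these groups alone and without wild-type saline array 1 or 2 or knockout saline array 1 or 3 (up to 0.0871).

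**Figure D4:**
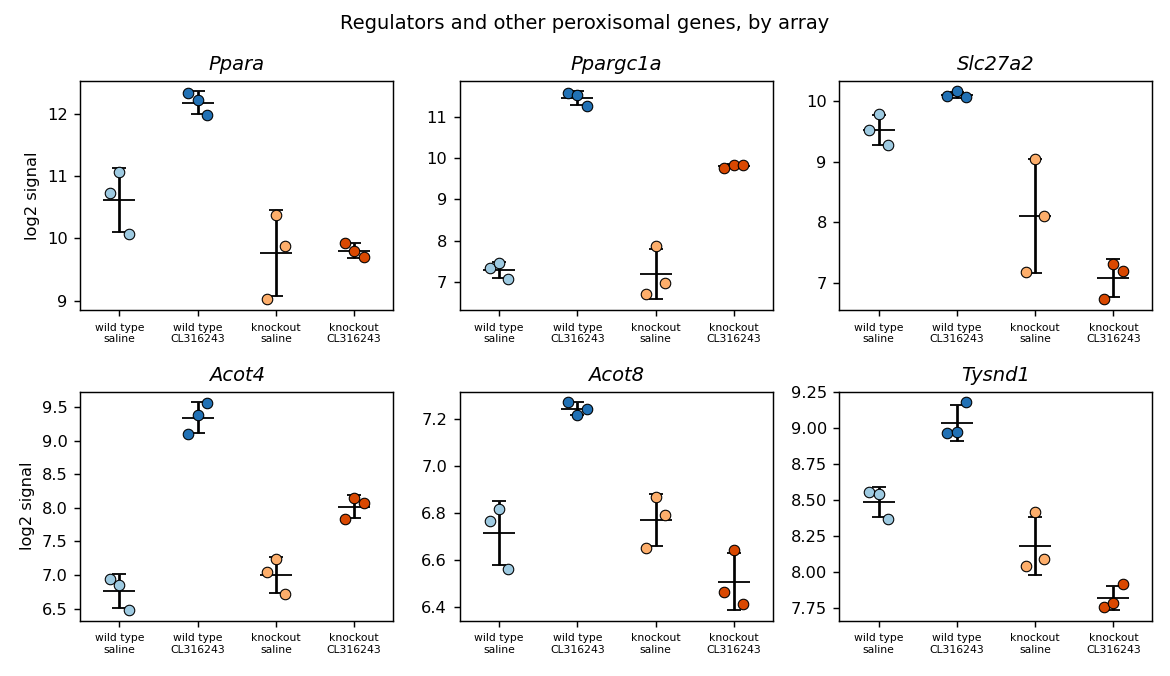
Log2 signal (vertical axis) of 2 regulators and 4 further peroxisomal genes in the 12 arrays, by group (horizontal axis); points are arrays, and bars are the group mean and SD (n = 3). For Ppara the wild-type CL316243 arrays lie between 11.98 and 12.33 and the knockout CL316243 arrays between 9.69 and 9.92.

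Of 14 other peroxins and fission factors 10 were tested. In wild types 0 rose (1 at an unadjusted p under 0.05) and 4 fell with the agonist by limma, against 11% and 18.8% of all tested genes, the largest being the membrane tether Acbd4, at -0.49 ± 0.10 (adjusted p = 0.00532), and the fission adaptor Fis1, at -0.41 ± 0.081 (adjusted p = 0.00337). Acbd4 alone fell in knockouts, at -0.64 ± 0.10 (adjusted p = 0.00265), where 10.2% of all genes fell. Between genotypes the only call was a higher Fis1 in knockouts after the agonist, at 0.28 ± 0.081 (adjusted p = 0.0233), lost with median-centring, in a fit of these groups alone and without wild-type CL316243 array 3 or knockout CL316243 array 1 or 2 (up to 0.0723). Of the other matrix and membrane proteins 13 of 25 were tested. The agonist lowered 7 in each genotype and raised 0 in wild types (0 also at an unadjusted p under 0.05 in limma) and 1 in knockouts; of all tested genes 18.8% and 10.2% fell and 11% and 7.75% rose. Nudt12, a pyridine nucleotide hydrolase, fell by 0.67 ± 0.17 and 0.92 ± 0.17, and the membrane channel Pxmp2 by 0.52 ± 0.12 and 0.45 ± 0.12. The fall of Nudt12 in wild types was lost without wild-type saline array 1 or 2 (up to 0.0509), and that of Pxmp2 in knockouts without knockout saline array 1 or 2 or knockout CL316243 array 2 or 3 (up to 0.0766). Ddo, the D-aspartate oxidase, was lower in knockouts by 0.70 ± 0.11 (adjusted p = 0.00402) after saline and 1.10 ± 0.11 (adjusted p = 1.08e-04) after the agonist; with its rows averaged the difference after saline was -0.45 (adjusted p = 0.0285).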

How the data were processed

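RNA of interscapular brown fat was measured on Affymetrix mouse exon arrays, 1 array for each of 12 mice. The authors deposited log2 signals of transcript clusters, normalized by RMA in Partek with genome build mm9, per the submitters' processing notes; versions are not given in the sources used here. The table holds 115830 rows, of which the probe table used here lists 27839, and the 25539 rows of 1 gene were kept. Genes above the 25th percentile of an array in at least 3 arrays were tested. One mean per group was fitted over all 12 arrays with limma 3.58.1 in R 4.3.3 (lmFit, eBayes), with Benjamini-Hochberg adjustment over 15896 genes in each of 5 contrasts, at a threshold of 0.05. Tables and figures used Python 3.11.15, pandas 2.3.3 and matplotlib 3.10.9. The model was tested on simulated data in which 200 of the 15896 genes were changed by 1 log2 unit. It recovered 88.5% of them for the agonist in wild types and 85% in knockouts. For the knockout after saline it recovered 88%, after CL316243 86.5%, and for the interaction 63.5%. In the same order 50, 26, 27, 2 and 20 unchanged genes were also called. Except for the knockout after CL316243, that is a larger share of the calls than the threshold of 0.05 stands for. All 5 runs used the same shuffle of the arrays' deviations from their group means.

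The members and gene lists were chosen with earlier results of these data known. Values in every array were given for Ehhadh, Pex11a and Cat and for up to 4 members per contrast with the largest differences past the threshold and no overlap between groups, with Pex14 added after its values were seen. In the other lists up to 3 genes per contrast were named, with Acot8, Crat, Tysnd1 and Idh1 added after their values were seen, and with Cpt2, Ppara and Ppargc1a whatever their call. Scores are means of centred log2 signals. Alternatives were 2 rescalings, 2 filters, the mean of a gene's rows, trended and robust moderation, only the groups compared, a replicate block, a skeletal muscle covariate and leaving out each array. The labels give no batch, and 3 arrays per group limit the precision. Promoter sequences are those of RefSeq on GRCm38.p6, a different build from the arrays', and were matched by gene symbol.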

Additional observations from a re-analysis of the deposited data

Results flagged for a closer look

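The response to CL316243 differed between genotypes, by the interaction term, in 2 of the 29 peroxisomal genes and in 7 genes of the other lists. Ehhadh (-2.20) and Pex13 (-0.91) had a lower agonist response in knockouts, as log2 differences of the response in knockouts minus that in wild types. Acot3 (-1.63), Acot4 (-1.57), Acot8 (-0.79), Crat (-0.84), Tysnd1 (-0.91) and Ppargc1a (-1.54) moved the same way. Acsl4 (1.10) had the higher response in knockouts. Groups of 3 arrays were too small for a test of single outlying arrays.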

How the results depend on the processing

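Of 47 calls in the 29 genes over the 5 comparisons 25 held under every alternative run, among them all those of Ehhadh except its fall in knockouts, and all those of Pex5 and Pex14, and 0 reversed among those run. Such calls numbered 10 of 13 for the agonist in wild types, 6 of 12 in knockouts, 0 of 4 for the knockout after saline, 8 of 16 after CL316243 and 1 of 2 for the interaction. Leaving out each array in turn gave 4 to 6 genes risen and 6 to 10 fallen with the agonist in wild types, 2 to 3 and 6 to 11 in knockouts, 0 to 3 higher and 0 to 6 lower in knockouts after saline, 1 to 3 and 7 to 12 after CL316243, and 0 to 1 and 1 to 3 for the interaction. The 6 falls in knockouts came without knockout saline array 2 or knockout CL316243 array 1 or 3. The knockout count after saline is the least stable: 0 were lower without knockout saline array 1 or 3, 6 without wild-type saline array 3, and 3 were higher without wild-type CL316243 array 3. After CL316243 7 were lower without wild-type CL316243 array 2, and 1 was higher without knockout CL316243 array 1 or 2. For the knockout after saline, fitting only the groups compared left 0 higher and 0 lower, with fewer arrays, quantile normalization gave 2 higher, and no filter 1 lower. The skeletal muscle covariate left 8 lower after CL316243, and 1 higher and 1 lower interaction; the 50th percentile filter gave 1 higher interaction and no filter 1 lower. The cause of these shifts was not tested. The higher interaction in both was that of Pex2.

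Median-centring moved the median of all genes by over 0.1 in wild types after the agonist, from -0.07 to 0.04, and the share of higher among all calls from 36.8% to 60.3% (49.9% with quantile normalization). In the other 3 group comparisons it moved from 43.2% to 58.8%, 46.8% to 46.4% and 49.7% to 35.7%. The replicate block, which takes the shared replicate numbers as a factor, gave 5 risen and 9 fallen with the agonist in wild types, 2 and 11 in knockouts, 1 higher and 3 lower after saline, 3 and 12 after CL316243, and 0 and 2 for the interaction. After saline only 1 of 4 calls, that of Phyh, was shared with the fit without it: Abcd2, Acox2 and Pex7 lost theirs, and Amacr and Pex6, lower, and Pex13, higher, gained one. After CL316243 it ended the call of Acox2, and it added a call of Pex11a for the agonist in each genotype. Arrays with the same number did not deviate together (r of -0.30 to 0.48 over 18 pairs, against -0.52 to 0.41 over 36 others), and 6 of 12 correlated best with their own number, so the numbers were not taken as pairs. Precision is limited by 3 arrays per group, and dim genes by the exclusion of rows below the filter.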

Other observations

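Of the 29 genes 2 had a second array row of their own, and in both the rows differed. The dimmer row of Acox3 had a CL316243 minus saline difference of -0.83 in wild types and -0.18 in knockouts, where the brighter row had -0.60 and -0.59. After the agonist the dimmer row was 0.72 log2 units higher in knockouts than in wild types, while the brighter row stood at 0.00. For Scp2 the dimmer row was 0.48 higher with the agonist in wild types and 0.28 higher in knockouts, and the brighter row was at -0.10 and -0.19. Levels are not compared between rows, and these differences have no test.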
